A study of Mus musculus with 6 samples.

Results

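The genes described are 8 members of the poly(ADP-ribose) polymerase (PARP) family (Parp1, Parp2, Parp3, Parp8, Parp9, Parp10, Parp12 and Parp14), the ubiquitin ligase gene Dtx3l and Zc3hav1, which encodes the zinc finger antiviral protein. They were taken by gene name from the deposited table of read counts, which holds 54532 genes, and all 10 were found once and passed edgeR's filter on low counts, beside 12296 tested genes in all. The libraries are RNA-seq of N9, an immortalized mouse microglial line and therefore a single cell line rather than microglia taken from brain. Of the 6 libraries, 3 came from untreated control cells and 3 from cells given lipopolysaccharide (LPS), the cell wall glycolipid sensed by toll-like receptor 4, at 1 µg/ml for 6 h. No other agent or genetic change is named for either group.

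PARP enzymes take ADP-ribose from NAD+ and attach it to proteins or nucleic acids. PARP1, PARP2 and PARP3 are switched on by DNA breaks, and PARP1 and PARP2 build long ADP-ribose chains that recruit repair factors. Most other members add single ADP-ribose units or, like PARP9 and the zinc finger antiviral protein, have little or no such activity of their own, and several are interferon-stimulated genes that act against viruses or shape cytokine signaling in macrophages.

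The total count per library lay between 16363767 and 17956772. Of 12 microglia and macrophage markers, 10 passed the filter and the list summed to 34971 to 38760 counts in control libraries and 36450 to 37375 with LPS, with 3 of its genes higher and 2 lower. Csf1r had 7140 to 8027 counts in each library, Spi1 rose from 4804 to 5242 counts to 6705 to 7114, and Trem2 fell from 2397 to 2503 counts to 1481 to 1705. Aif1 and P2ry12, which also mark microglia, had at most 9 counts in any library. The 5 lymphocyte markers summed to at most 1 count per library. The 11 hepatocyte markers summed to 8, 269 and 460 counts in control replicates 1, 2 and 3 and to 5, 4 and 12 with LPS, with Alb at 2, 155 and 292 and at 2, 0 and 0. Control replicate 1 thus lay with the LPS libraries in these markers. In each of the 10 genes described it lay on the side of the other control libraries. The 5 endothelial markers summed to 6 to 17 counts in control libraries and 26 to 38 with LPS. Cldn5 was at 0, and the 1 endothelial gene that was tested was higher. The 5 oligodendrocyte markers summed to 622 to 685 counts in control libraries and 464 to 475 with LPS. Olig2 was at 0, and the 1 oligodendrocyte gene that was tested was lower. The 5 neuron markers summed to 453 to 531 counts and the 5 astrocyte markers to 1573 to 1816 counts per library, each with 1 gene higher and 1 lower. The part of hepatocyte, endothelial, oligodendrocyte, neuron and astrocyte markers in the results was not tested. The labels do not say whether replicates were separate cultures, so p-values measure the spread between these libraries, which may be technical.

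In LPS-stimulated versus control N9 microglia, 8 of the 10 genes rose and 2 fell (edgeR quasi-likelihood test, Benjamini-Hochberg adjusted p under 0.05). Over all tested genes, 18.7% rose and 15.7% fell by the same rule. By the stricter rule of the study, which adds a log2 fold change over 1.5, 5 of the 10 rose, namely Parp14, Parp9, Dtx3l, Parp10 and Parp12, beside 2.4% of all tested genes. The same 5 genes passed this rule in each of the 15 alternative analyses, glmTreat included, which tests against 1.5 itself. The median log2 fold change was 1.29 over the 10 genes and 0.00 over all tested genes. For the 8 genes that rose, every LPS library lay above every control library, which held for 23.7% of tested genes. For the 2 that fell, every LPS library lay below every control library, which held for 21.5%. With bulk RNA, a change in the number of cells that use a gene cannot be told apart from a change in RNA per cell. Without TMM factors, on library totals alone, the median of all tested genes moved to -0.09 and the split over all genes changed from 2294 higher and 1927 lower to 1520 and 3342, while the 10 genes kept their directions and calls. That alternative was added after the data were seen.

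**Figure D1:**
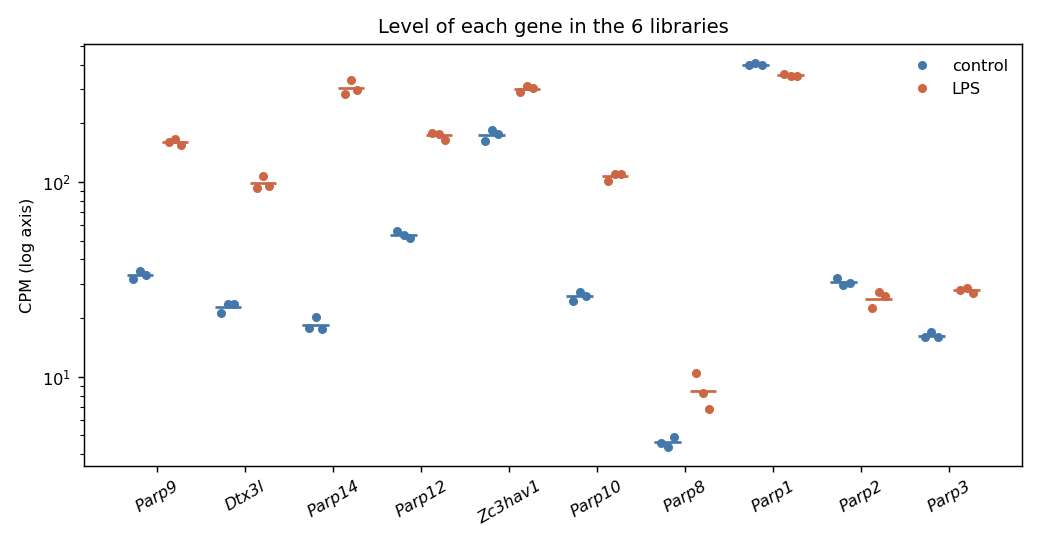
Level of each gene in every library, in CPM on a log axis; points are libraries, blue for control and orange for LPS, and short lines are means of 3. For Parp9, Dtx3l, Parp14, Parp12, Zc3hav1, Parp10, Parp8 and Parp3 the LPS points lie above the control points, and for Parp1 and Parp2 below.

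PARP9 carries macrodomains, which bind ADP-ribose, and works as a heterodimer with the Deltex-type E3 ubiquitin ligase DTX3L. Levels are given in CPM, the counts of a gene scaled to a fixed library total after TMM normalization. Parp9 (ENSMUSG00000022906) was at 31.9, 35.1 and 33.3 CPM in control replicates 1, 2 and 3 and at 161, 166 and 155 CPM with LPS. The LPS libraries were close to each other and far above the control libraries. The log2 fold change was 2.26 (standard error, SE, 0.05, edgeR adjusted p = 9.5e-14), a rise of 4.8-fold. Dtx3l (ENSMUSG00000049502) was at 21.2, 23.7 and 23.5 CPM in control libraries and 93.2, 107 and 95.7 CPM with LPS. It rose by 2.11 on the log2 scale (SE 0.07, edgeR adjusted p = 4.8e-12), or 4.33-fold, without overlap between the groups.

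Parp14 encodes the largest family member described here, a mono-ADP-ribosyltransferase with macrodomains that is known as a cofactor of STAT6. Parp14 (ENSMUSG00000034422) was at 17.7, 20.2 and 17.5 CPM in control libraries and at 282, 333 and 296 CPM with LPS. All LPS libraries thus lay far above all control libraries, with LPS replicate 2 the highest. Its log2 fold change of 4.04 (SE 0.08, edgeR adjusted p = 6.6e-15), a rise of 16.4-fold, was the largest of the 10 genes, and 51 of all tested genes (0.415%) had a higher one. In the fits that omit 1 library it lay between 3.96 and 4.10.

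These genes are neighbors on chromosome 16 of GRCm38. Parp14 lies on the minus strand from 35832874 to 35871544, Dtx3l on the minus strand from 35926511 to 35939151, and Parp9 on the plus strand from 35938470 to 35972605. Dtx3l and Parp9 are thus arranged head to head, with starts 681 bases apart and overlapping 5′ ends. In GENCODE M21 their exons share 458 bases on opposite strands, so without strand information reads from these bases cannot be assigned to either gene. Of the genes lying wholly within 100 kb of the cluster, 4 others were tested and did not pass the test (edgeR adjusted p from 0.707 to 0.922). Kpna1, which encodes a nuclear import receptor, was at 160 ± 7.16 CPM in control cells and 159 ± 4.86 CPM with LPS (SD, n = 3), with a log2 fold change of -0.01 (SE 0.05). The corresponding log2 fold changes were 0.04 (SE 0.06) for Fam162a, 0.03 (SE 0.16) for Hspbap1 and -0.12 (SE 0.24) for Wdr5b, the last resting on 31 to 49 counts per library. The signs of Kpna1, Fam162a and Hspbap1 varied between alternative analyses, and Wdr5b lay between -0.27 and 0.00. The 6 remaining genes of the interval had at most 6 counts in any library.

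**Figure D2:**
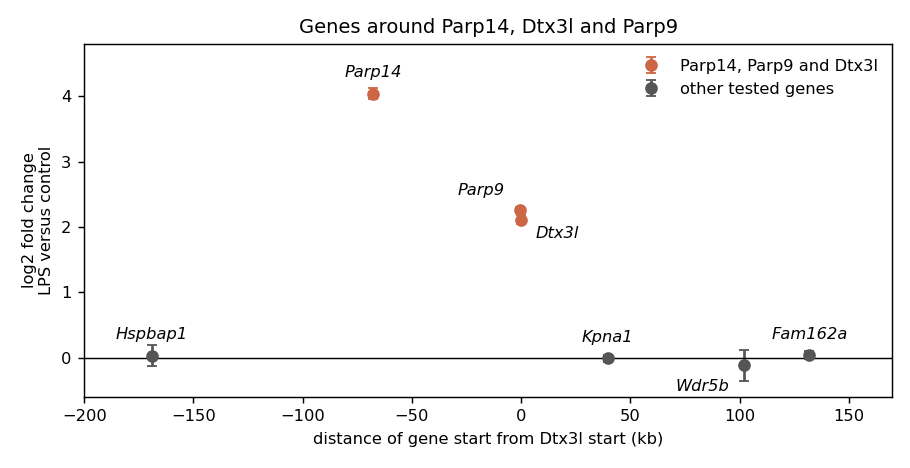
Log2 fold change of each tested gene against the distance of its start from the Dtx3l start in kb; bars are SE. Parp14, Parp9 and Dtx3l lie above 2, and the 4 other genes lie near 0.

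Within a library, the ratio of the counts of a pair of genes does not depend on library scaling. The ratio of Parp9 to Dtx3l counts was 1.5, 1.48 and 1.42 in control libraries and 1.73, 1.54 and 1.62 with LPS, a difference of 0.15 on the log2 scale. The LPS ratios were above the control ratios by a small margin, and the part of the shared exon bases in this was not tested. The ratio of Parp9 to Parp14 was 1.8, 1.74 and 1.9 in control libraries and 0.572, 0.498 and 0.523 with LPS, a difference of -1.77. Parp14 thus had fewer counts than Parp9 in every control library and more in every LPS library. The ratio of Parp12 to Zc3hav1, described next, went from 0.343, 0.288 and 0.293 to 0.618, 0.571 and 0.543, a difference of 0.91. For the pair Parp1 and Parp2 the ratios overlapped, at 12.3, 13.7 and 13 in control libraries and 15.9, 12.9 and 13.5 with LPS, a difference of 0.11. The two-sided exact permutation test gave p = 0.1 for each of the other 3 pairs, the smallest value that 3 libraries against 3 allow, and p = 0.5 for Parp1 and Parp2 (0.133 and 0.5 after Benjamini-Hochberg adjustment over 4 pairs).

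**Figure D3:**
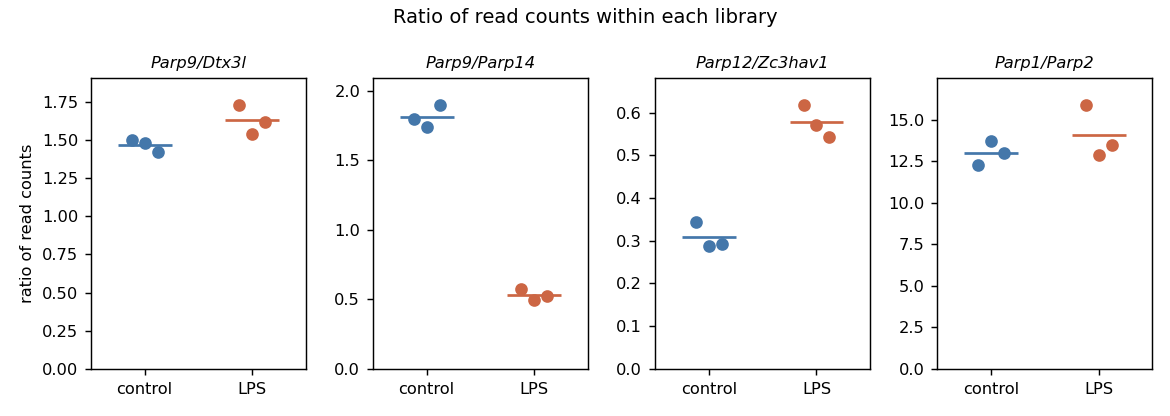
Ratio of the read counts of 2 genes within each library, with an axis from 0 for each pair; points are libraries and lines are means of 3 per group. The ratio of Parp9 to Parp14 is 1.74 or higher in control libraries and 0.572 or lower with LPS.

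PARP12 and the zinc finger antiviral protein both bind RNA through CCCH-type zinc fingers. PARP12 is a mono-ADP-ribosyltransferase with antiviral activity, whereas the zinc finger antiviral protein directs CpG-rich viral RNA to decay and lacks ADP-ribosyltransferase activity. Both genes lie on the minus strand of chromosome 6, Zc3hav1 from 38305286 to 38354603 and Parp12 from 39086410 to 39118349, with 732 kb between them. Parp12 (ENSMUSG00000038507) was at 55.8, 53.3 and 51.5 CPM in control libraries and 179, 177 and 165 CPM with LPS. The groups were widely separated, and the log2 fold change was 1.70 (SE 0.05, edgeR adjusted p = 2.0e-12), or 3.24-fold. Zc3hav1 (ENSMUSG00000029826) was at 163, 185 and 176 CPM in control libraries and 289, 311 and 303 CPM with LPS. It was at rank 2 of the 10 genes by CPM per kb in both groups and rose less, by 0.79 on the log2 scale (SE 0.05, edgeR adjusted p = 1.6e-08), or 1.73-fold.

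PARP10 and PARP8 are mono-ADP-ribosyltransferases outside these groups, and PARP8 is little characterized. Parp10 (ENSMUSG00000063268), on chromosome 15 from 76231174 to 76243441, was at 24.5, 27.2 and 26.1 CPM in control libraries and 101, 110 and 110 CPM with LPS. It rose by 2.04 on the log2 scale (SE 0.06, edgeR adjusted p = 1.7e-12), or 4.12-fold, which was close to the values of Parp9 and Dtx3l. Parp10 shares 205 exon bases with Plec on the same strand, which had between 10769 and 17268 counts per library, and the part of such reads in the Parp10 counts was not tested. Parp8 (ENSMUSG00000021725), on chromosome 13 from 116854820 to 117025537, was the least abundant of the 10 genes. It was at 4.55, 4.37 and 4.9 CPM in control libraries and 10.4, 8.23 and 6.82 CPM with LPS, from 77 to 164 counts per library. The LPS libraries were spread more widely than for any of the other 9 genes in relation to the mean, but all lay above the control libraries. Its log2 fold change was 0.88 (SE 0.17, edgeR adjusted p = 9.6e-04), and it lay between 0.71 and 1.01 in the fits that omit 1 library.

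Of the 3 DNA-damage-dependent members, Parp1 and Parp2 fell and Parp3 rose. PARP1 is the founding and most abundant enzyme of the family, and PARP2 shares its role at single-strand breaks. Parp1 (ENSMUSG00000026496), on chromosome 1 from 180568924 to 180601254, was at 397, 408 and 397 CPM in control libraries and 359, 350 and 349 CPM with LPS. The LPS libraries lay below the control libraries by a margin larger than the spread within either group. Its log2 fold change was -0.18 (SE 0.04, edgeR adjusted p = 0.00155). Parp2 (ENSMUSG00000036023), on chromosome 14 from 50807841 to 50821301, was at 32.2, 29.7 and 30.4 CPM in control libraries and 22.6, 27.1 and 25.9 CPM with LPS. LPS replicate 1 was the lowest of these, and the log2 fold change of -0.29 (SE 0.08, edgeR adjusted p = 0.0151) became -0.22 (edgeR adjusted p = 0.0699) without it, so that the call for Parp2 rests on that library. Parp3 (ENSMUSG00000023249), on chromosome 9 from 106470322 to 106476949, acts at DNA double-strand breaks and went the other way. It was at 15.9, 16.9 and 16 CPM in control libraries and 27.8, 28.5 and 27 CPM with LPS, a log2 fold change of 0.77 (SE 0.08, edgeR adjusted p = 2.8e-06). Parp3 shares 20 exon bases with Rrp9 on the opposite strand, which had 1413 to 1777 counts per library.

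**Figure D4:**
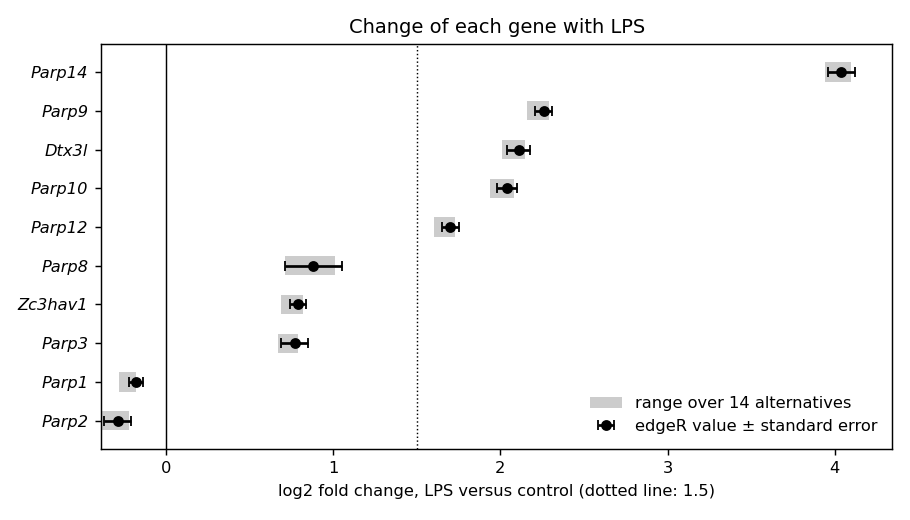
Log2 fold change of LPS versus control for each gene; black points are edgeR values with their standard error, grey bars are the range over 14 alternative analyses, and the dotted line marks 1.5. Parp14 stands at 4.04, and Parp1 and Parp2 lie left of 0.

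To compare levels between genes, CPM were divided by the gene length in the deposited table. On this scale of CPM per kb, the order in control libraries was Parp1 (75.7 ± 1.18, SD, n = 3), Zc3hav1 (26.8 ± 1.74), Parp12 (13.4 ± 0.543), Parp2 (8.49 ± 0.357), Parp9 (6.86 ± 0.337), Parp10 (6.06 ± 0.324), Parp3 (4.4 ± 0.148), Dtx3l (3.99 ± 0.238), Parp14 (1.99 ± 0.161) and Parp8 (0.518 ± 0.0303). No neighbors in this order overlapped between their lowest and highest libraries. With LPS, Parp1 stayed first at 66.6 ± 1.01 CPM per kb, and Parp14 moved from rank 9 to rank 5 at 32.6 ± 2.83. There, the ranges of Zc3hav1 (46.2 ± 1.67) and Parp12 (43.5 ± 1.93) overlapped, as did those of Parp9 (33 ± 1.14) and Parp14 and those of Parp3 (7.51 ± 0.195) and Parp2 (6.94 ± 0.647). The sum over the 10 genes went from 148 ± 3.39 to 279 ± 7.92 CPM per kb. Parp1 made up 51.1% ± 0.414 of this sum in control libraries and 23.9% ± 0.872 with LPS (SD, n = 3). Over the same comparison Parp14 went from 1.34% ± 0.0795 to 11.7% ± 0.696. Zc3hav1 was at 17.1% to 18.7% in control libraries and 16.1% to 16.9% with LPS.

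**Figure D5:**
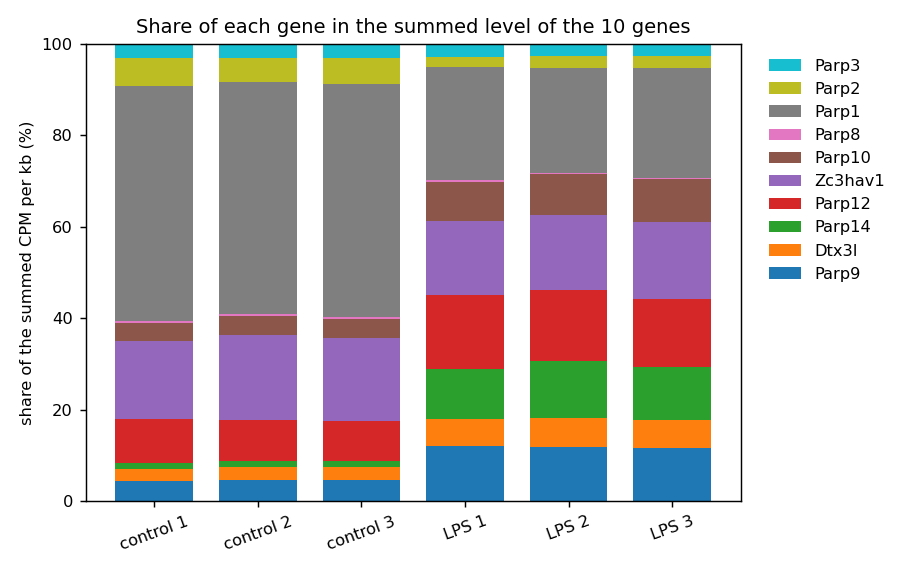
Share of each gene, in percent, in the summed CPM per kb of the 10 genes, as stacked bars for each library. The Parp1 segment takes 51.1% on average in control libraries and 23.9% in LPS libraries.

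Promoter sequence was available from RefSeq (GRCm38.p6) for 7 of the 10 genes, as the 250 bases before the gene start in RefSeq, and not for Parp9, Parp10 and Parp14. For Parp1, Parp2, Parp8 and Dtx3l this start differs from the one in the count table given above, and the windows of Parp2, Parp8 and Dtx3l reach into the gene as the count table has it. The windows were searched on both strands for the core of the interferon-stimulated response element (GAAA, any 2 bases, GAAA), for the STAT-binding GAS element (TTCNNNGAA), for the NF-kappa B consensus and for the GC box (GGGCGG). Of all 32851 promoters of the same length, 2.98% held the first, 7.02% the second, 7.25% the third and 32.7% the fourth, and matches of different motifs did not overlap in the 7 windows. The first and second motifs were found in 0 of the 7 windows, which says only that these letters are not there. Zc3hav1, which rose, held 1 NF-kappa B match between 100 and 91 bases before its RefSeq start. Parp1, which fell, held 3 GC boxes, Parp8, which rose, held 2 and Parp2, which fell, held 1. The windows of Zc3hav1, Parp12, Dtx3l and Parp1 are shown 5′ to 3′ to set genes that rose beside the abundant gene that fell, without bases in GENCODE M21 exons, and capitals mark the NF-kappa B match and the GC boxes. They are chr6:38354604-38354853 (minus strand), chr6:39118350-39118472 (minus strand), chr16:35939207-35939277 (minus strand) and chr1:180568641-180568890 (plus strand).
Zc3hav1: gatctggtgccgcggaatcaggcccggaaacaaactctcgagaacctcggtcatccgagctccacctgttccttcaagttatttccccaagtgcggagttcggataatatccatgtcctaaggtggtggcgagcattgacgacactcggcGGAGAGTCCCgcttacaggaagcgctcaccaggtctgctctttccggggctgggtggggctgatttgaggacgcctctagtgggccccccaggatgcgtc
Parp12: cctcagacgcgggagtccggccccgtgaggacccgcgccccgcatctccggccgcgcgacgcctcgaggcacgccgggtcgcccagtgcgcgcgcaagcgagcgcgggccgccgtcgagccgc
Dtx3l: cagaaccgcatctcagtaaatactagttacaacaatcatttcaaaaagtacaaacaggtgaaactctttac
Parp1: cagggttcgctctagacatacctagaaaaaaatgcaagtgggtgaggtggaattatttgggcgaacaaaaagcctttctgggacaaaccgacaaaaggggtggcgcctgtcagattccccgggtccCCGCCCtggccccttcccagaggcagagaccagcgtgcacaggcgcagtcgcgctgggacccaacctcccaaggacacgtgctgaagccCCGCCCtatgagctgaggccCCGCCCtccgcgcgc

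The 5 protein-coding genes closest to Parp14 in pattern were named by the distance between centered log2 values over the 6 libraries, among 11041 tested genes. They were Irf7 (distance 0.335), Ifi204 (0.352), Tnf (0.368), Apol9b (0.409) and Ifi209 (0.433). Irf7, an interferon regulatory factor, was at 10.3, 8.73 and 8.55 CPM in control libraries and 142, 152 and 136 CPM with LPS. With 2 groups this distance mostly ranks genes by the size of their change, and Apol9b and Ifi209 were below 0.3 CPM in each control library, where the pseudocount of 0.5 CPM sets the distance.

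The lists that follow are given by their counts, beside 18.7% of all tested genes that rose, 15.7% that fell and a median of 0.00, and their difference from other genes was not tested. Among the 7 other PARP and tankyrase genes, 4 rose and 3 did not pass the test, with a median log2 fold change of 0.37. Those that rose were Parp11 by 0.93 (SE 0.11, edgeR adjusted p = 8.4e-06), Tiparp, a mono-ADP-ribosyltransferase induced by the aryl hydrocarbon receptor, by 0.72 (SE 0.05, edgeR adjusted p = 3.4e-08), Parp4 by 0.44 (edgeR adjusted p = 0.0124) and Parp16 by 0.37 (edgeR adjusted p = 0.0465). Leaving out control replicate 1 or LPS replicate 2 left 2 of these calls, since Parp4 then had 0.32 (edgeR adjusted p = 0.052) or 0.34 (edgeR adjusted p = 0.0782), and the call for Parp16 was lost with any library left out (edgeR adjusted p from 0.051 to 0.165). Of the 4 other Deltex ligase genes, 3 were tested, 2 rose and Dtx3 did not pass the test (log2 fold change -0.04, SE 0.11, edgeR adjusted p = 0.799), with a median of 0.28. Dtx2 rose by 0.56 (SE 0.07, edgeR adjusted p = 2.0e-05) and Dtx4 by 0.28 (SE 0.05, edgeR adjusted p = 2.5e-04), beside 2.11 for Dtx3l.

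The genes that remove or read ADP-ribose had log2 fold changes from -0.53 to 0.19, with a median of -0.03. Of 10 tested, Oard1, which removes ADP-ribose from proteins, fell, at a log2 fold change of -0.53 (SE 0.12, edgeR adjusted p = 0.00395). Adprh, an ADP-ribosylarginine hydrolase, rose by 0.19 (SE 0.07, edgeR adjusted p = 0.04), a call lost without control replicate 2, control replicate 3, LPS replicate 1 or LPS replicate 2 (edgeR adjusted p from 0.106 to 0.174). Without control replicate 3, 2 genes of this list fell. The 8 others, among them Parg, which degrades ADP-ribose chains, did not pass the test.

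Among the 19 genes of single-strand break and base excision repair, in which PARP1 and PARP2 act, 1 rose, 5 fell and 13 did not pass the test, with a median log2 fold change of -0.11. Over all tested genes 18.7% rose and 15.7% fell, and the difference of this list from other genes was not tested. Neil3, a DNA glycosylase, fell from 11.6 ± 0.488 to 6.08 ± 0.661 CPM (SD, n = 3), at -0.93 on the log2 scale (SE 0.13, edgeR adjusted p = 3.9e-05). Lig1, the replicative DNA ligase, had -0.43 (SE 0.05, edgeR adjusted p = 1.5e-05), and Aplf, which binds ADP-ribose chains, had -0.48 (SE 0.11, edgeR adjusted p = 0.00314). Xrcc1 and Tdp1 also fell. Hpf1, the cofactor with which PARP1 and PARP2 modify serine, rose by 0.17 (SE 0.05, edgeR adjusted p = 0.0219), a call lost without control replicate 3, LPS replicate 2 or LPS replicate 3 (edgeR adjusted p from 0.0746 to 0.117). On library totals without TMM, 9 genes of this list were called lower, beside 3342 of all 12296 tested genes.

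PARP enzymes consume NAD+, and 12 of 21 genes of NAD+ synthesis and consumption were tested, of which 3 rose and 1 fell, with a median log2 fold change of 0.08. Nampt, the rate-limiting enzyme of NAD+ salvage, rose from 217 ± 4.83 to 372 ± 5.48 CPM (SD, n = 3), by 0.78 (SE 0.04, edgeR adjusted p = 1.0e-09). Nadk, the cytosolic NAD kinase, rose by 0.77 (SE 0.04, edgeR adjusted p = 2.0e-09) and Cd38, an NAD+ glycohydrolase, by 0.54 (SE 0.07, edgeR adjusted p = 3.3e-05). Nadk2, the mitochondrial kinase, fell, at -0.53 (SE 0.11, edgeR adjusted p = 0.00157), and a further gene was called lower without control replicate 2 or LPS replicate 2, for a count of 2. The other 8 tested genes did not pass the test.

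Of 14 genes for cofactors of the zinc finger antiviral protein and for RNA decay, 7 rose and 7 did not pass the test, with a median log2 fold change of 0.15, beside 18.7% of all tested genes that rose. Trim25, the ubiquitin ligase that the zinc finger antiviral protein needs for its activity, rose from 233 ± 1.12 to 562 ± 10.8 CPM (SD, n = 3), by 1.27 (SE 0.04, edgeR adjusted p = 1.7e-12). N4bp1, an antiviral ribonuclease, rose by 1.25 (SE 0.06, edgeR adjusted p = 8.5e-10) and Riok3 by 0.62 (SE 0.05, edgeR adjusted p = 6.1e-08). Khnyn, the nuclease cofactor of the zinc finger antiviral protein, did not pass the test. The count of this list that rose was 5 or 6 in the fits that omit 1 library. It was 5 by DESeq2 and on library totals without TMM. Without control replicate 1, 1 gene of this list was called lower, and on library totals without TMM 3 were.

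Of 10 genes of type I interferon signaling, 7 rose and 3 (Ifnar1, Ifnar2 and Irf3) did not pass the test, with a median log2 fold change of 1.11. The 3 with the largest changes were Irf7 with 3.97 (SE 0.07, edgeR adjusted p = 6.4e-15), Stat2 with 2.24 (SE 0.09, edgeR adjusted p = 3.6e-11) and Irf9 with 2.08 (SE 0.07, edgeR adjusted p = 8.0e-12). STAT2 and IRF9 are subunits of the factor that interferon activates at interferon-stimulated genes.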

How the data were processed

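RNA-seq of N9 microglia was grouped by the sample labels into 3 control and 3 LPS libraries. The authors deposited counts of reads per gene, not normalized, and the submitters' processing notes name featureCounts 1.5.0-p3 and mm10, whereas the aligner, the annotation release and the use of strand are not given in the sources used here. A deposited table of the authors' own comparison (normalized values, fold changes and p-values) was not used. Every row had a gene name. Gene lengths are those of the deposited count table and equal the union of GENCODE M21 exons for all 10 genes, whose positions match as well. Counts were tested with edgeR version 4.0.16 under R 4.3.3, by its quasi-likelihood test after TMM normalization and filterByExpr, with a prior count of 0.125 and Benjamini-Hochberg adjustment over 12296 genes. A gene rose or fell at an adjusted p under 0.05. SE were derived from the F statistic, as the absolute log2 fold change over the root of F. Ratios were tested with scipy version 1.17.1 (Python 3.11.15), and figures were drawn with matplotlib version 3.10.9. The members and gene lists were chosen with earlier results of these data known. Genes outside the family were named by rule: tested genes within 100 kb of Parp9, Dtx3l or Parp14, the 5 genes most like the member that changed most, and up to 3 called genes with the largest changes per list. Plec and Rrp9 were named because they share exon bases with a member, as do AC129574.2 with Parp14 and Mir6904 with Parp1, which had at most 6 and 2 counts in any library. The cell type markers Csf1r, Aif1, P2ry12, Spi1, Trem2, Alb, Cldn5 and Olig2, and Parp16, Hpf1, Nadk2, Xrcc1, Tdp1, Parg and Khnyn, and genes listed as not passing the test, were named after their values were seen. The other fits tried used no filter or a mean of at least 10 counts, RLE size factors, DESeq2 version 1.42.0, robust dispersion, a replicate block, a prior count of 2, glmTreat and each library left out in turn. The fits were tested on simulated data. Between replicates of a group, chi-square per gene was 3.55 to 7.71, above sampling noise.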

Additional observations from a re-analysis of the deposited data

How the results depend on the processing

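All 10 genes kept their direction, and 9 kept their side of the threshold, in each of the 14 alternative fits that gave them a value. The exception was Parp2, at -0.22 without LPS replicate 1, which lowers the count of genes that fell from 2 to 1. In the fits that omit 1 library, Parp2 lay between -0.34 and -0.22, and 1 or 2 of the 10 genes were called lower. Deviations from group means of same-numbered libraries correlated at 0.13, 0.05 and 0.00, and those of differently numbered libraries at -0.12 to 0.08. Control replicate 2 correlated best with LPS replicate 3. These values do not settle whether replicate numbers pair the libraries. With a replicate block, 2454 genes rose and 2020 fell, with no call among the 10 genes changed. Parp14 then stood at 4.04 (SE 0.05 instead of 0.08), Parp9 at 2.26 (SE 0.05 in both fits) and Parp2 at -0.29 (SE 0.09 instead of 0.08). The strict count over all genes was 181 by glmTreat instead of 295. On library totals without TMM, chosen after seeing the data, 1520 genes rose and 3342 fell. Under that setting 1 other PARP gene, 2 ADP-ribose genes, 9 repair genes, 2 NAD+ genes and 3 cofactor genes were lower, and 0 ADP-ribose genes and 0 repair genes were higher. DESeq2 likewise called 0 higher in these last lists. Without the filter on low counts, 2 ADP-ribose genes were higher and 2 lower. RLE size factors and robust dispersion each gave 2 lower NAD+ genes. In the fits that omit 1 library, 2 to 4 other PARP genes, 0 to 1 ADP-ribose genes and 0 to 1 repair genes were higher, and 1 to 2 ADP-ribose genes, 1 to 2 NAD+ genes and 0 to 1 cofactor genes were lower. The causes of these changes were not tested. Parp8 rests on 77 to 164 counts per library, which limits its precision.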
